A study of Mus musculus with 8 samples.

Results

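The leukocyte integrin chains described here are 10 genes (Itgam, Itgb2, Itgal, Itgax, Itgad, Itga4, Itgb1, Itgb7, Itga6 and Itgav), found by their symbols among the 23084 genes of the authors' deposited table. They occupy 11 rows, because the symbol Itgam was given to a pair of gene identifiers. The study sorted CD11b+Ly6C+ (monocytic) and CD11b+Ly6G+ (granulocytic) cells from spleens of C57BL/6 mice aged 6 to 8 weeks, either wt or LmnaMyeKO, and sequenced their RNA, giving 4 groups of 2 samples. In LmnaMyeKO mice a floxed Lmna gene, which encodes lamin A/C, is deleted by Cre expressed from the Lyz2 locus (LysM-Cre), so that deletion follows the activity of that promoter in the myeloid lineage. Sample titles were used to assign subsets, because the label for cell markers names CD11b+Ly6C+ for all 8 samples. Every cell was selected for CD11b protein, which Itgam encodes, so the presence of Itgam is a property of the sort and not a finding.

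Integrins are receptors at the cell surface made of an α and a β chain, and they bind other cells and matrix once signals from inside the cell switch them to their active form. The β2 chain is used by leukocytes and pairs with CD11a (LFA-1), CD11b (Mac-1), CD11c or CD11d. The β1 and β7 chains pair with α4, which binds VCAM-1, fibronectin and, as α4β7, MAdCAM-1. On neutrophils and monocytes these receptors carry out adhesion to vessel walls, migration and the uptake of opsonized particles.

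The measurement was 1 value for each gene, the mean normalized count, which is an average by the authors of read counts divided by a size factor for each library. The lowest values were checked against an average over 8 libraries, the number of samples in the series. No other number of libraries was tried. A set of 8 read units was kept only if all 28 sums of 2 units were listed as values, so these sums are no separate support. Of the sets kept, the one that explained most low values was used. With it, each of the 1730 values under 0.5 was a whole number of reads in 8 libraries to within 1.5e-05. The low values thus fit a mean over 8 libraries, and the mean is taken to cover 8 libraries. The table does not name them, and only if they are these 8 samples does each level mix both genotypes and both subsets equally. The size factors behind it ran from 0.796 to 1.048 in 7 libraries and reached 1.91 in the remaining library. Values of single libraries were not analysed here, so no level below has a spread between replicates, no test was run, and no level can be given for a genotype or a subset. Counting error alone was small, between 0.154% of the mean for Itgam and 1.69% for Itga6 if all libraries held equal levels.

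Mature neutrophil genes were the highest of the marker lists in this mean. S100a9, a calcium-binding protein of neutrophils, had the highest mean normalized count of all genes (725556), and all 11 neutrophil markers lay between 7853 and that value. The antigens used for sorting reached 14413 for Ly6c2 and 7853 for Ly6g, whereas Ly6c1 reached 62.2. The 8 monocyte markers ran from 706 to 22159, with a median of 2601. The highest of them was Csf1r, the receptor for macrophage colony-stimulating factor. Markers of other spleen cells were also present. The 7 B-cell markers ran from 4141 to 64122 (Ighm), the 8 macrophage markers from 2315 to 31789 (Slc40a1), the 8 T- and NK-cell markers from 40.3 to 759 (Cd4), the 6 dendritic-cell markers from 16.8 to 116 (Flt3), and the 7 erythroid and platelet markers from 24.4 to 8580 (Hbb-bs). The part of these cells in the integrin levels was not tested. Lmna, the targeted gene, had a mean of 79.5 over the 8 libraries, and this mean does not check the genotype of any sample.

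Per kb of annotated exon, Itgb2 and its α partners Itgam, Itgal and Itgad held the first 4 places, whereas its partner Itgax stood in 8th place. To compare genes, the mean normalized count was divided by the length of all annotated exons of the gene in kb, giving counts per kb. Itgb2, the β2 chain CD18, had a mean normalized count of 46971 and 15390 counts per kb, the highest level of the 10 chains. Itgam, the α chain of Mac-1 and the sorting antigen, had a mean of 54060 and 10760 counts per kb. Itgal, the α chain of LFA-1 that binds ICAM-1, followed with a mean of 21530 and 3277 counts per kb. The level of Itgam was 3.28 times that of Itgal, and that of Itgal was 2.37 times that of Itgad.

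Itgad and Itgax stood lower. Itgad encodes CD11d, a chain known from splenic red pulp macrophages, and had a mean of 6231 and 1382 counts per kb. Itgax, which encodes CD11c and is widely used as a marker of dendritic cells, had a mean of 2601 and 542 counts per kb. The level of Itgad was thus 2.55 times that of Itgax, and that of Itgam was 19.9 times that of Itgax. Dendritic-cell markers stood between 3.77 and 43.6 counts per kb in the same mean, and macrophage markers between 603 and 12182. These ranges do not measure the number of such cells, and which cells gave the Itgad and Itgax reads was not tested.

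Together the 4 α partners of β2 came to 15961 counts per kb, against 15390 for Itgb2, a ratio of 1.04. Itgam made up 67.4% of this sum, Itgal 20.5%, Itgad 8.66% and Itgax 3.39%. The ratio of the sum to Itgb2 was 1.80 when the means were not divided by length, 1.13 with the length of the longest transcript and 1.17 with the coding length. The share of Itgam stayed between 64.0% and 67.7% under all of these scalings and when both of its rows were summed. Since every cell was selected for CD11b, neither this share nor the level of its partner Itgb2 is independent of the sort. The plot of partner shares shows these values.

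**Figure D1:**
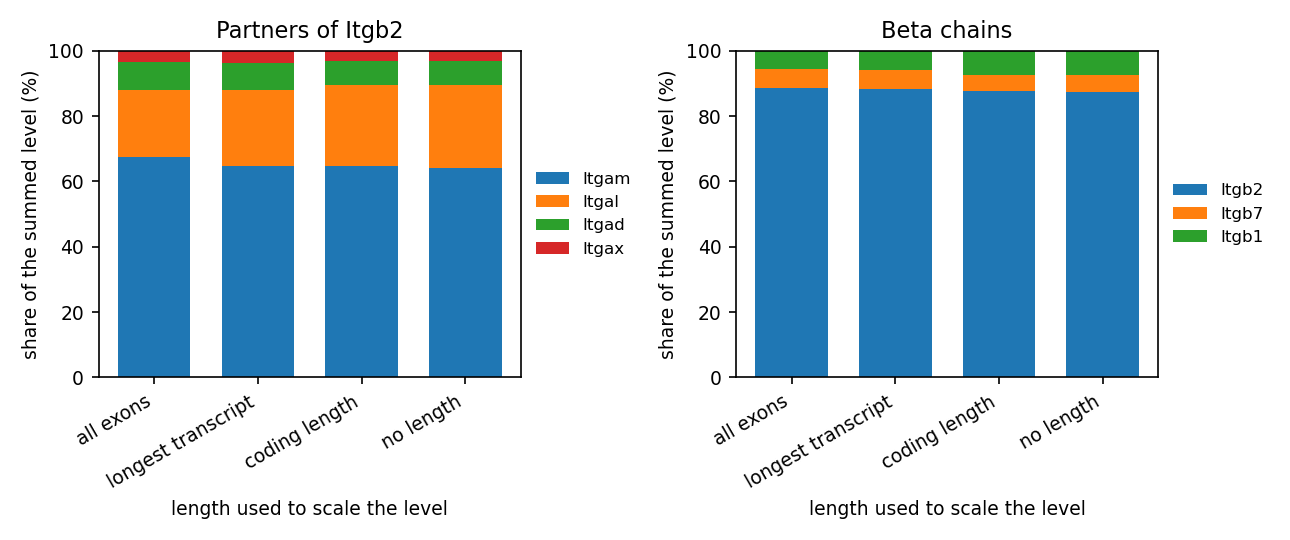
Stacked bars give the share, in percent, of each chain in the summed level of the 4 α partners of Itgb2 (left) and of the 3 β chains (right), for each length used to scale the mean over 8 libraries. Itgam holds between 64.0% and 67.4% of its group and Itgb2 between 87.3% and 88.5% of the β chains. The mean has no spread between libraries, so the bars carry no error.

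Itgb1 and Itgb7, the other β chains, stood at similar levels. Itgb7, the partner of α4 in lymphocyte homing to the gut, had a mean of 2778 and 1003 counts per kb. Itgb1, the β chain of the receptors for fibronectin, collagen and laminin, had a mean of 4035 and 989 counts per kb. The order of these neighbours changed with the length used. Itgb1 was 0.986 times Itgb7 per kb of all exons and 1.47 times Itgb7 per kb of coding sequence. Of the summed level of the 3 β chains, Itgb2 took 88.5%, Itgb7 5.77% and Itgb1 5.69%, and Itgb2 was 15.6 times Itgb1.

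Itga4 was the main α chain outside the β2 group. It had a mean of 8074 and 578 counts per kb, which was 76.3% of the sum of Itga4, Itgav and Itga6. Of the 10 chains, its level moved most with the length used. Its annotated exons span 13978 bases and its longest coding sequence 3096, so that per kb of coding sequence it reached 2608 and moved from the 7th to the 4th place. Itgb1 and Itgb7 together were 3.45 times Itga4 per kb of all exons but 1.09 times per kb of coding sequence.

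Itgav and Itga6 had the lowest levels. Itgav, the α chain that binds vitronectin and activates latent transforming growth factor-β, had a mean of 1388 and 129 counts per kb. Itga6, a laminin receptor chain that pairs with β1 or β4, had a mean of 451 and 49.95 counts per kb. Of the β chains that pair with Itgav, Itgb5 stood at 519 and Itgb3 at 378 counts per kb, or 4.01 and 2.93 times Itgav. The highest chain, Itgb2, was 308 times the lowest, Itga6, and this fold fell to 151 with the longest transcript and 148 with the coding length.

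The order of levels per kb of all exons was Itgb2, Itgam, Itgal, Itgad, Itgb7, Itgb1, Itga4, Itgax, Itgav and Itga6. Itgb7 was 1.01 times Itgb1, and Itga4 was 1.07 times Itgax. Each other step between neighbours was at least 1.38-fold. Since the spread between libraries is unknown, no neighbours in this order can be said to differ. The first 3 and the last 3 places were held by the same chains under all 3 lengths, as the plot of levels shows. Without division by length, Itgam stood before Itgb2, and 5 of the 10 chains stood at another place.

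**Figure D2:**
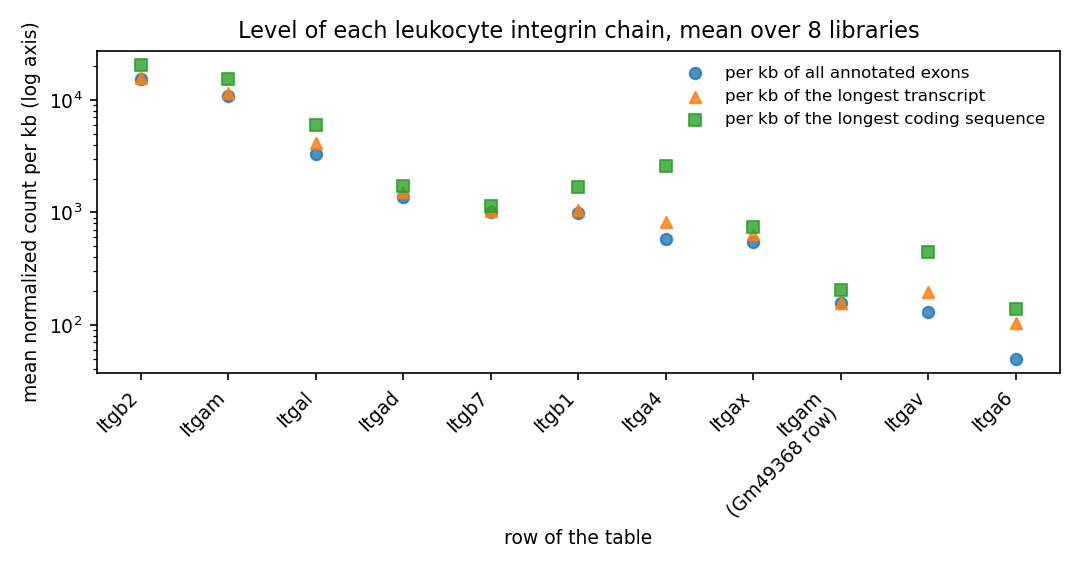
Each point is the mean normalized count per kb (log axis) of a row of the table, averaged by the authors over 8 libraries, with circles for all annotated exons, triangles for the longest transcript and squares for the longest coding sequence. Itgb2 and Itgam stand highest at 15390 and 10760 per kb of all exons, and Itga6 lowest at 49.95, while the 3 lengths differ most for Itga4, Itgav and Itga6.

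Set against the 23004 genes with an annotated length, 8 of the 10 chains lay at or above the 90th percentile of counts per kb, which was 485. For Itgb2, 99.8% of genes had a lower level, for Itgam 99.6% and for Itgal 98.5%. Itgav and Itga6 were the 2 chains under this limit, with 73.4% and 61.0% of genes lower. Among protein-coding genes alone, 6 chains reached the 90th percentile. The 10 chains together held 0.587% of the summed mean of all genes.

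The gene models of the β2 partners Itgam, Itgax and Itgad lie close together. How reads could be shared between genes depends on the sequence that their transcripts have in common. On mm10, Itgam (chr7:128062640-128118491), Itgax (chr7:128129547-128150657) and Itgad (chr7:128154376-128223816) follow each other on the plus strand within 161 kb, and Itgal (chr7:127296260-127335138) lies 728 kb before Itgam. The other members are Itga6 (chr2:71745616-71858416), Itga4 (chr2:79255426-79333123), Itgav (chr2:83724397-83806916), Itgb1 (chr8:128685654-128733200) and Itgb2 (chr10:77530252-77565708) on the plus strand and Itgb7 (chr15:102215995-102231944) on the minus strand. The annotated transcripts of Itgax and Itgad share 384 windows of 50 identical bases, 8.02% of those of Itgax and 8.43% of those of Itgad. Reads that lie wholly within such windows match both genes, so the ratio of Itgad to Itgax has an uncertainty whose size was not measured. Apart from the 2 rows named Itgam, no other pair among the 11 rows and Itgb2l, a β2-like gene, shared such a window. Genes on the opposite strand within Itgad reached a mean of at most 123, against 6231 for Itgad, and whether reads were counted by strand is not given in the sources used here.

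The second row with the symbol Itgam, ENSMUSG00000108596.1, is named Gm49368 in GENCODE M21. Its mean was 752, or 1.37% of the sum of both Itgam rows. Of its 30 exon blocks, 29 lie within exons of Itgam and hold 3450 of its 4803 exonic bases (71.8%). Besides stretches of earlier exons annotated for Itgam alone, the models part after the last shared exon, which ends at 128116846 on chromosome 7. Itgam continues at 128117306, whereas Gm49368 continues at 128126808, 8.32 kb beyond the end of Itgam. They are shown, 30 coding bases on either side of the junction, because a read across this junction belongs to a single model, with the bases of the model's own last exon in capitals.
Itgam: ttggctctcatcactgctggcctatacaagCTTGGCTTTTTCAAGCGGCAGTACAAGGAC
Gm49368: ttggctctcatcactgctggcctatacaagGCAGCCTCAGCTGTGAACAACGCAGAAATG
Reads from the shared exons match both models and would be divided between them by RSEM, so the mean of 752 is uncertain. RSEM was run with GENCODE M12, and whether its models of both rows have these exons was not checked. The map of the locus shows where the last exon of Gm49368 lies.

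**Figure D3:**
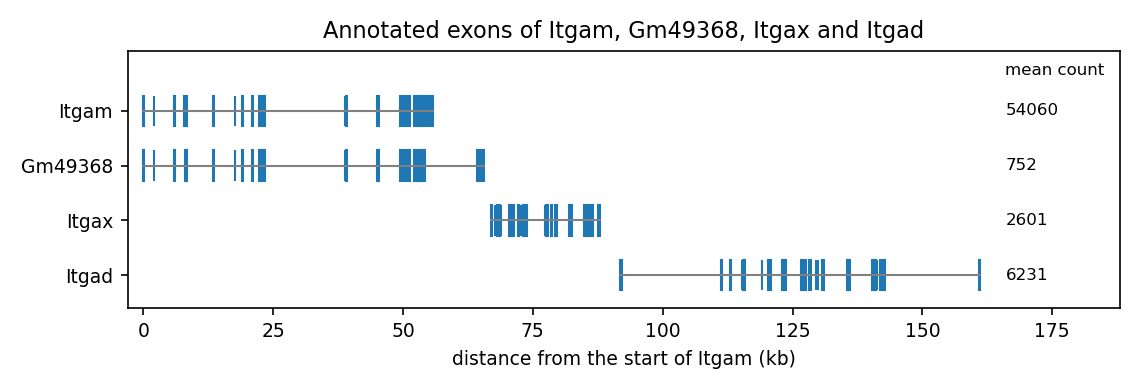
Boxes are the annotated exons of Itgam, Gm49368, Itgax and Itgad (GENCODE M21), placed by their distance in kb from the start of Itgam, with the mean normalized count over 8 libraries at the right. The exon blocks of Gm49368 lie within those of Itgam except the last, which lies between Itgam and Itgax, and its mean is 752 against 54060 for Itgam.

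The starts of Itgam and Itgax are compared by sequence because these neighbours differ 19.9-fold in level. RefSeq promoter windows were at hand for 6 of the 10 chains, on the same build (GRCm38.p6). PU.1, a transcription factor of myeloid cells, binds purine-rich sites, and the letters GAGGAA, and TTCCTC for the opposite strand, were searched in the 250 bases before each start, where 23.3% of 32851 windows hold them. Itgam had 2 matches, at positions -84 and -15 from its start, and Itgav, whose level was 129 counts per kb, also had 2, at -218 and -7. Itgb1 had a match at -9, and Itga4, Itgax and Itgb7 had none. The 150 bases before the start of Itgam (chr7:128062490-128062639) and of Itgax (chr7:128129400-128129549), both on the plus strand, are given with matches in capitals.
Itgam: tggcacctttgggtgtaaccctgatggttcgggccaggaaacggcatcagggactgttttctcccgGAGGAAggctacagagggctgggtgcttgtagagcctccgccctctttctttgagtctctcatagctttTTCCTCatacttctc
Itgax: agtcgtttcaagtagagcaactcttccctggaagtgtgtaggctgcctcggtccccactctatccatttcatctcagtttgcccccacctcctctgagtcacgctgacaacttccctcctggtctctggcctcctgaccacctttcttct
A match is only a run of letters, other purine-rich sequences were not searched, and binding was not measured. A link between matches and levels was not tested.

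The other integrin chains on the list were lower than most of the 10. Of 16 further chains, 14 were in the table, with a median of 10.7 counts per kb against 996 for the leukocyte chains and 18.8 for all genes. Their highest were Itgb5 (519), Itgb3 (378) and Itga9 (272 counts per kb), so that 8 leukocyte chains, Itgax the lowest of them, stood above all 14. The β2-like gene Itgb2l is not on this list and stood at 3520. Itga2b, the platelet partner of Itgb3, stood at 26.9, so that Itgb3 was 14.1 times its platelet partner. Itgae, the second partner of Itgb7, stood at 13.7, and Itgb7 was 73.0 times as high. The 11 α chains in the table that are known to pair with Itgb1 came to 1163 counts per kb, of which Itga4 made up 49.6%.

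A further list held 23 genes of integrin activation and signalling, from talins and kindlins to kinases and adaptors that act after receptor engagement. All 23 were in the table and 18 were at or above the 90th percentile. Tyrobp (DAP12), an adaptor that links receptors to the kinase Syk, was the highest of the list with 46869 counts per kb. Rap1b, a small GTPase that triggers integrin activation, had 4784, and Tln1 (talin 1), which binds β tails, had 4720. Fermt3 (kindlin-3), the kindlin of blood cells, had 1236, whereas its relatives Fermt2 and Fermt1 had 0.963 and 0.0941. Tln2, the second talin, had 0.391.

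Of 16 ligand genes, 12 were in the table and 2 were at or above the 90th percentile. Vcam1, the ligand of α4 integrins and itself on the macrophage list, was the highest with 2357 counts per kb. Fn1 (fibronectin), also on the monocyte list, had 578 and Icam1, the ligand of LFA-1 and Mac-1, had 364, while Madcam1, the ligand of α4β7, had 0.927. The plot of the 4 gene lists shows their ranges.

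**Figure D4:**
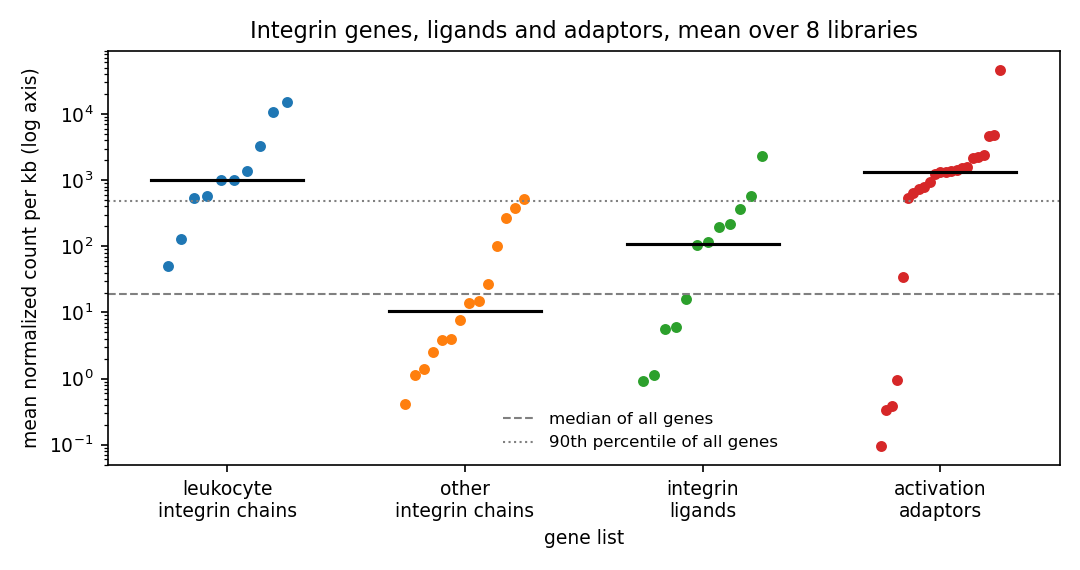
Each point is a gene, placed by its mean normalized count per kb over 8 libraries (log axis), in the lists of leukocyte integrin chains, other integrin chains, ligands and activation and signalling adaptors, with black bars for list medians. The leukocyte chains have a median of 996 and the adaptors of 1314, both above the 90th percentile of all genes (485, dotted), whereas the other chains have a median of 10.7, under the median of all genes (18.8, dashed).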

How the data were processed

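The 8 samples were RNA libraries of CD11b+Ly6C+ and CD11b+Ly6G+ spleen cells of wt and LmnaMyeKO mice, grouped by title. Per the submitters' processing notes and methods, reads passed through cutadapt 1.14, STAR 2.5.2b (mm10), RSEM 1.3.0 (GENCODE M12) and DESeq2 1.20.0. The authors' deposited table gives, per gene, a mean signal, the average of counts divided by size factors. Its 6 other columns hold the authors' own contrast between genotypes (log2 fold change, its standard error, statistic, p-values and a signed fold change) and were not used. No column holds values of a sample, so the planned count tests could not be run, and the table gives no total count for a library, only size factors recovered from its low values.

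The low values of the mean were tested as whole-read sums of up to 6 reads over at least 2 of 8 libraries. This search was also run on simulated counts of 8 libraries, and no other number of libraries was tried. Whether it finds size factors unlike those recovered here was not tested. Of the range tested, 2.84% lay within the tolerance of a sum, and the next best set of 8 read units explained 37.6% of the values. No value equalled 1 or 2 reads in a single library. Lengths and positions came from GENCODE M21 (mm10), matched by identifier for 23004 of 23084 genes. The percentile limit of 90, scalings and lists were chosen with earlier results of these data known. Named were all 10 members, the 3 highest of each integrin list, Itga2b, Itgb3, Itgae and Itgb5, the highest marker of each cell type, and Lmna. Fermt3, Fermt2, Fermt1, Tln2, Madcam1, Ly6c1 and Itgb2l were named after their values were seen. Protein sequences were not analysed here. Python 3.11.15, pandas 2.3.3 and scipy 1.17.1 were used.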

Additional observations from a re-analysis of the deposited data

How the results depend on the processing

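No paired analysis was possible because no sample has values of its own here. For the same reason the planned count test between genotypes, its DESeq2, filter and 8-sample alternatives and the fits that leave out a replicate were not run. The highest chain was 308 times the lowest, 151 times with the length of the longest transcript and 148 times with the coding length. The share of Itgam among the α partners of Itgb2 was 67.4%, and 64.8%, 64.6% and 64.0% with the longest transcript, the coding length and no length. The sum of these partners over Itgb2 was 1.04, and 1.13, 1.17 and 1.80 under the same settings. With both Itgam rows summed, an alternative chosen after seeing the data, the share was 67.7% and the ratio 1.05. These lengths are annotated maxima, and the transcripts in use in these cells were not analysed here. The number of chains at or above the 90th percentile was 8, and 8 without length, 6 among protein-coding genes and 6 among genes with a mean of at least 10.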

Other observations

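Itgb2l, a β2-like chain outside the 10 genes and named after its value was seen, had a mean normalized count of 15222 and 3520 counts per kb. This placed it between Itgam and Itgal, and Itgb2 was 4.37 times as high. None of the windows of 31 or 50 bases in its annotated transcripts was shared with Itgb2. Its levels in CD11b+Ly6C+ and in CD11b+Ly6G+ cells cannot be told apart in a mean over all 8 libraries.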
